A study of Mus musculus with 96 samples.

Results

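The genes described here are 38 genes of the unfolded protein response and of protein folding in the endoplasmic reticulum (ER), out of 35670 genes with any count in mouse liver. They were taken from a list of names by a rule that uses no measured value, but the list was drawn up with earlier results of these data known, so its counts are a description and not independent evidence. All 38 had counts in this tissue and passed the filter on low counts. They comprise 3 stress sensors, 3 effectors of those sensors, 10 chaperones and co-chaperones, 5 disulfide isomerases, 2 lectin chaperones, 2 secreted or ER-resident targets, 8 genes of ER-associated degradation, 4 genes of the translocon and 1 ER membrane protein. The libraries came from livers of mice aged 12 to 16 weeks, from a Bmal1 line (genotypes Bmal1 WT and Bmal1 KO) and a Cry line (genotypes Cry1/2_WT and Cry1/2_dKO, called Cry WT and Cry KO here). BMAL1 is a transcriptional activator of the circadian clock, and CRY1 and CRY2 are repressors in the same clock. Mice of each genotype were fed ad libitum (AL) or with food restricted to the night (RF), and livers were taken at zeitgeber time (ZT) 0, 4, 8, 12, 16 and 20 h. The 8 groups held 12 libraries each, 2 at every time, and the 2 numbered sets of 6 libraries within a group are called series. No Cre driver, light schedule or pooling of animals is named in the labels, so the p-values measure the spread between libraries, whether or not each is 1 animal.

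The unfolded protein response is the set of signalling pathways that matches the folding capacity of the ER to the load of proteins entering it. The sensors IRE1 (gene Ern1), PERK (Eif2ak3) and ATF6 (Atf6) span the ER membrane and are held inactive by the chaperone BiP (Hspa5); when unfolded proteins accumulate, IRE1 splices Xbp1 mRNA, PERK slows translation, and ATF6 is cut to release a transcription factor. Spliced XBP1 and cleaved ATF6 raise transcription of chaperones, disulfide isomerases and the machinery that returns misfolded proteins to the cytosol for degradation. Hepatocytes secrete most plasma proteins and hold a large ER, and feeding changes the load on it.

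Cleaved ATF6 and XBP1 are known to act through the ER stress response element (ERSE), which joins a CCAAT box and a CCACG box. The letters searched for, on both strands, were CCAAT and CCACG with any 9 bases between them for the ERSE, and ATTGG and CCACG with any 1 base between them for the related ERSE-II. RefSeq promoter windows on GRCm38.p6 (250 bases before to 50 after a start) were found for 31 of the 38 genes. The ERSE letters occurred in windows of 9 of these 31 genes (29%), and in 0.137% of the 27025 genes with a window. The ERSE-II letters occurred in 2 of the 31 (6.45%) and in 0.0444% of all. The E-box CACGTG, to which BMAL1 binds with its partner, occurred in 5 of the 31 (16.1%) and in 8.09% of all genes with a window. The 5 were Calr, Derl3, Dnajb9, Ssr1 and Txndc5. Letters like the unfolded protein response element (TGACGTGG) occurred in 1 of the 31 (3.23%), Txndc5, and in 0.714% of all. The core of the amino acid response element (TTGCATCA) occurred in 1 of the 31 (3.23%), Herpud1, and in 1.03% of all. These are matches of letters only. The stretches of the genes whose daily profiles are followed below are shown 5′ to 3′ on the strand of the gene, with the motif in capitals (the ERSE can lie in either orientation, so it reads CCAAT to CCACG or CGTGG to ATTGG):
Hspa5, chr2:34772020-34772048, plus strand: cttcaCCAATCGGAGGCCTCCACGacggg
Creld2, chr15:88819505-88819553, plus strand: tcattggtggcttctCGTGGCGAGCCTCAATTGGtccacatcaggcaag
Syvn1, chr19:6046517-6046565, plus strand: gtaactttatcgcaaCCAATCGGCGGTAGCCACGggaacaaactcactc
Derl3, chr10:75893227-75893275, plus strand: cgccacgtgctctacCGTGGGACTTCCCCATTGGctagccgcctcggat
Hsp90b1, chr10:86705518-86705671, minus strand: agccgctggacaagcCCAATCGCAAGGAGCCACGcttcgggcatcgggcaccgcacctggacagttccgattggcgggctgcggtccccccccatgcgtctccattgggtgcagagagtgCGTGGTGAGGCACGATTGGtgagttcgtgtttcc
Herpud1 (ERSE-II), chr8:94386362-94386402, plus strand: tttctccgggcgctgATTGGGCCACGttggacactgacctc
Hsp90b1 holds the ERSE letters in 2 places. The other genes with the ERSE letters were Calr, Canx, Dnajc3 and Pdia6, and Dnajb11 held those of the ERSE-II. Derl1, Sec61a1, Atf6, Sil1, Hyou1, Hspa13 and Manf had no entry.

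Total counts ran from 1478963 to 35568856, with a median of 25422366, and levels are given in CPM, the count relative to the TMM-scaled library size. The 3 shallowest libraries were 1 each of Cry KO RF at ZT4, Cry KO AL at ZT20 and Bmal1 KO RF at ZT20. Another fact of the whole series touches several results: 7 libraries stood apart by Saa1 (acute phase), Isg15 (interferon response) or Ctrb1 (pancreas), and 2 of them were Bmal1 KO RF, 2 Cry KO RF, 2 Cry WT AL and 1 Cry WT RF. No Cry KO AL library was among them. The median sum of 5 acute phase markers was nevertheless highest in Cry KO AL, at 4724 CPM against 1489 to 3091 CPM in the other groups. Its part in the Cry KO AL results was not tested. The targeted gene Arntl, which encodes BMAL1, lay between 9.7 and 14.9 CPM in the 12 Bmal1 KO AL libraries and between 0.272 and 35.3 CPM in Bmal1 WT AL, while Cry1 ranged from 5.94 to 51.4 CPM in the Cry WT AL libraries and from 5.37 to 9.94 CPM in the libraries of Cry KO AL. Counts over a whole gene do not show where in the transcript the reads fell. The hepatocyte markers were present in every library. Their summed level was lower in Bmal1 KO AL (43906 to 65741 CPM) than in Bmal1 WT AL (84848 to 130527 CPM), and that of the 12 exocrine pancreas markers reached 1217 CPM in 1 Cry KO RF library and 283 CPM in 1 Cry WT AL library, with medians of 14.7 to 44.8 CPM over the groups. Alb weighs most in the hepatocyte sum, with a median of 60844 CPM over all libraries against 1321 to 10659 CPM for the other markers. Whether the other hepatocyte markers fell as well was not tested. In bulk liver, fewer cells of a type and less RNA per cell cannot be told apart.

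Per kilobase of exon, the most abundant of the 38 transcripts over the 48 WT libraries was P4hb, the beta subunit of prolyl hydroxylase and a disulfide isomerase, at a mean of 542 CPM per kb. Calr, a lectin chaperone that binds calcium, followed at 278 CPM per kb and Hspa5 at 243 CPM per kb. The sensors were far lower, at 12.8 CPM per kb for Ern1, 11.3 for Atf6 and 2.97 for Eif2ak3, and Derl3, a derlin of the degradation machinery, was lowest at 1.96 CPM per kb. No gene of the 38 averaged under 1 CPM.

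In WT liver 8 of the 10 chaperone and co-chaperone genes had their highest mean at ZT16, in the night, and the other 2, Dnajc10 and Sil1, at ZT12. By the mean of 2 libraries, a second high level stood at ZT4 in Bmal1 WT AL and at ZT0 in Cry WT RF. Bmal1 WT RF and Cry WT AL had mainly the high level at ZT16. For Hspa5 the ZT4 level of Bmal1 WT AL was high in series 1 and not in series 8. Hspa5 in the 8 WT libraries at ZT16 lay between 847 and 3130 CPM, with a median of 1944 CPM. At ZT8 the 8 libraries lay between 353 and 548 CPM, with a median of 447 CPM. At ZT0 they lay between 675 and 2327 CPM (median 873 CPM), and at ZT4 between 573 and 1576 CPM (median 906 CPM). The libraries of ZT16 and those of ZT8 therefore did not overlap, while those of ZT0 and ZT4 overlapped with those of ZT16. Hspa5 was highest at ZT16 in 6 of the 8 WT series and lowest at ZT8 in 7 of 8. By group mean Cry WT RF was the exception, with its highest Hspa5 level at ZT0 (1878 CPM). Creld2, an ER-resident protein with disulfide isomerase activity, had the same order with a wider swing: 36.5 to 247 CPM at ZT16 (median 167 CPM), 12.5 to 20.5 CPM at ZT8 (median 15.3 CPM) and 13.2 to 142 CPM at ZT4 (median 49.3 CPM). Creld2 too was highest at ZT16 in 6 of 8 WT series and lowest at ZT8 in 7 of 8, and its ZT16 and ZT8 libraries did not overlap.

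**Figure D1:**
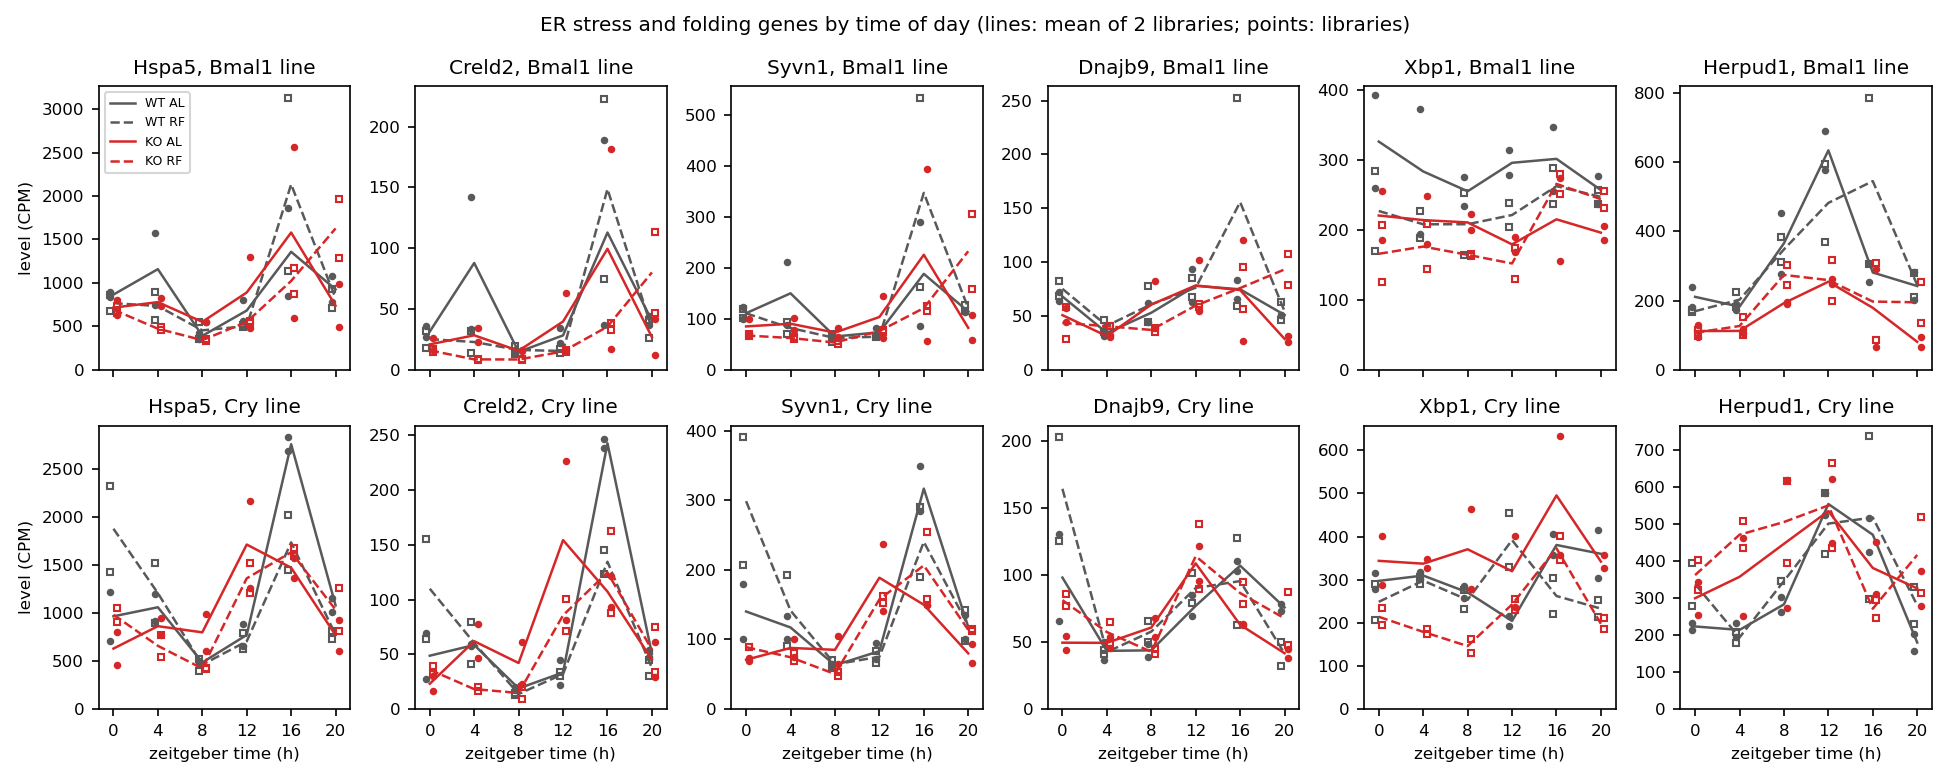
Levels (CPM, linear axis from 0) of Hspa5, Creld2, Syvn1, Dnajb9, Xbp1 and Herpud1 by zeitgeber time (h), with the Bmal1 line in the upper row and the Cry line in the lower row, with grey for WT, red for KO, solid lines for AL and dashed lines for RF, where points are libraries and lines join the means of the 2 libraries of each time. In WT, Hspa5 and Creld2 were highest at ZT16 in 6 of 8 series, while Herpud1 was highest at ZT12 in 5 of 8.

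The 2 libraries of a time could differ widely. For Hspa5 in Bmal1 WT AL the libraries at ZT4 were at 1576 and 739 CPM, and at ZT16 at 1868 and 847 CPM. In both cases the higher one belonged to series 1. The ZT4 library of series 8, at 739 CPM, lay below the median of its series (820 CPM). In Cry WT AL the ZT16 libraries were close, at 2685 and 2831 CPM. Over the 48 pairs of libraries of 1 group and time, the higher exceeded the lower by a median of 1.32-fold for Hspa5 and 1.59-fold for Creld2, against 1.12-fold for P4hb and 1.06-fold for Derl1, and Creld2 exceeded 1.5-fold in 26 of the 48 pairs.

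A fit with a 24 h and a 12 h component for each group gave a measure of these profiles. Its size is the peak-to-trough range on the log2 scale, and a component was called with a Benjamini-Hochberg adjusted p under 0.05 over the 15772 genes tested (edgeR's quasi-likelihood test) and a range of at least 0.5. An average over groups was taken over their fitted cosine and sine terms. Groups that peak at different times therefore partly cancel in it, and its range is not the mean of the ranges within groups. Averaged over the 4 WT groups, the 12 h component was called for 14 of the 38 genes, while 2.41% of all genes tested were called; this average was added after the results per group were seen. Leaving out series 1 of Bmal1 WT AL gave 7 genes, and leaving out any other WT series gave 10 to 16. The 12 h peaks of the 14 genes fell between 0.736 and 4.19 h, with a median of 3.49 h, and again 12 h later. With 6 times in a day, a profile that repeats after 12 h and a daily profile with a shoulder or a narrow peak cannot be told apart by this component alone.

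Creld2 had a 12 h range of 2.19 ± 0.29 (SE) on the log2 scale in this average, with an edgeR adjusted p of 8.7e-07. Derl3 had an equal range of 2.19 ± 0.45 (adjusted p = 0.0028), at far lower levels. Hyou1, a large chaperone that exchanges nucleotide on BiP, had a range of 1.49 ± 0.20 (adjusted p = 1.3e-06). Sdf2l1, a component of the BiP chaperone complex, had 1.37 ± 0.26 (adjusted p = 0.00094), Hspa5 had 1.35 ± 0.18 (adjusted p = 1.3e-06), and Manf, a secreted ER stress protein, had 1.32 ± 0.21 (adjusted p = 5.4e-05). Syvn1, the ubiquitin ligase HRD1 of ER-associated degradation, had 1.24 ± 0.21 (adjusted p = 0.00019), and the disulfide isomerase Pdia4 had 0.997 ± 0.146 (adjusted p = 8.6e-06). The other 6 called genes were Dnajb9, Hsp90b1, Hspa13, Dnajb11, Sel1l and Wfs1, with ranges of 0.53 to 0.82. Hspa5, Hyou1, Hspa13, Pdia4, Manf, Creld2 and Syvn1 were called under every alternative processing tried, leaving out each series in turn included.

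By role, the 12 h component was called in the WT average for 7 of 10 chaperones and co-chaperones, both ER-resident or secreted targets, 3 of 8 degradation genes, 1 of 5 disulfide isomerases and the single ER membrane protein, Wfs1. It was called for 0 of 3 sensors, 0 of 3 effectors, 0 of 2 lectin chaperones and 0 of 4 translocon genes. A further 7 genes passed the adjusted p alone with a range under 0.5, among them Dnajc3, a co-chaperone that inhibits PERK, at 0.49 ± 0.11 and Sec61a1, the pore of the translocon, at 0.40 ± 0.09. The share of all genes that passed the adjusted p alone is not given here. At an unadjusted p under 0.05 (edgeR) the 12 h component held for 25 of the 38 and for 2540 of the 15772 genes tested. The median range over the 38 genes was 0.40, against 0.20 over all genes tested.

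Derl3 rests on few libraries. Its 8 WT libraries at ZT4 lay between 0.718 and 32.1 CPM with a median of 3.22 CPM, and at ZT16 between 0.759 and 23 CPM with a median of 4.89 CPM. The WT libraries at every time overlapped one another, and the 2 libraries of a group and time differed by a median of 2.54-fold. Derl3 is known for high expression in secretory cells such as plasma cells and pancreatic acini. The summed level of the 8 plasma and B cell markers ran from 16.3 to 48.4 CPM in Bmal1 WT AL, from 11.4 to 144 CPM in Bmal1 WT RF, from 17.3 to 99.0 CPM in Cry WT AL and from 5.26 to 133 CPM in Cry WT RF. That of the 12 exocrine pancreas markers reached 30.6, 30.0, 283 and 28.6 CPM in the same order, and Derl3 itself 32.1, 19.4, 23 and 5.01 CPM. The part of these cells in the Derl3 values was not tested.

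In no single group was the 12 h component called for any of the 38 genes by edgeR, where 0.0761% of all genes were called in Bmal1 WT AL, 0.0317% in Bmal1 WT RF, 0.0507% in Cry WT AL, 0.19% in Cry WT RF, 0.0888% in Bmal1 KO RF and 0% in the other 3 groups. At an unadjusted p under 0.05 it held for 13 genes in Bmal1 WT AL, 6 in Bmal1 WT RF, 20 in Cry WT AL and 14 in Cry WT RF, and for 5 in Bmal1 KO AL, 0 in Bmal1 KO RF, 0 in Cry KO AL and 8 in Cry KO RF. Of the 15772 genes tested, 892, 454, 624 and 1276 had such a p in these 4 WT groups, in that order. In the 4 KO groups 270, 771, 309 and 878 did. The same fit without a filter on low counts called 11, 8, 10 and 10 of the 38 genes in those 4 WT groups, and 6, 1, 2 and 6 in the 4 KO groups, in that order. Here and below, counts without the filter are given without the share of all genes called. They therefore do not show whether the 38 genes stand out. No other tool was run for the components. The 12 h range of Hspa5 was 1.252 in Bmal1 WT AL, 1.37 in Bmal1 WT RF, 1.51 in Cry WT AL and 1.53 in Cry WT RF. Its 12 h peak fell between 2.5 and 4.0 h in these 4 groups.

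**Figure D2:**
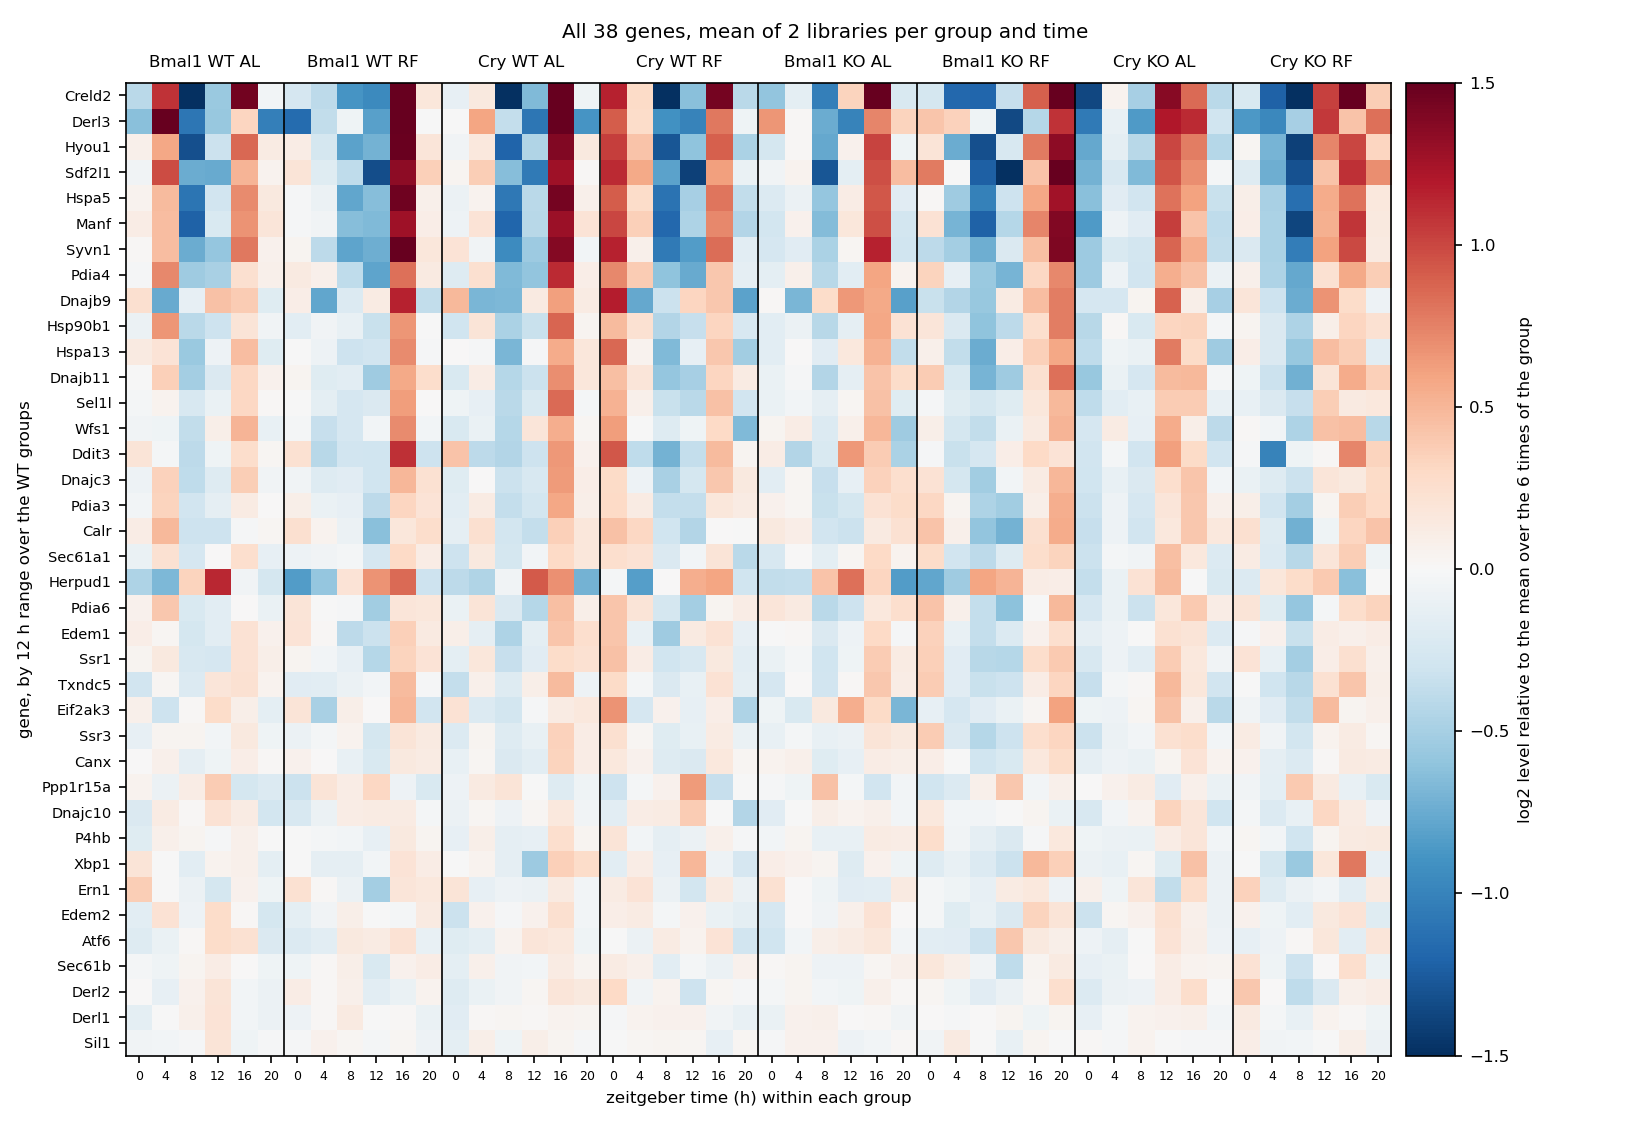
Level of each of the 38 genes (rows, ordered by 12 h range in WT) at each time (columns, h) in each group, as the log2 level relative to the mean over the 6 times of the group; each cell is the mean of 2 libraries and colours stop at 1.5 in either direction. The upper rows are high at ZT16 in the WT groups, also at ZT4 in Bmal1 WT AL and at ZT0 in Cry WT RF, and high at times from ZT12 to ZT20 in the KO groups, while the lowest rows, such as Derl1 and Sil1, stay near 0.

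In the knockouts Hspa5, Creld2 and Syvn1 were highest at ZT12, ZT16 or ZT20 in every series. Hspa5 in the 8 KO libraries lay between 483 and 2165 CPM at ZT12 (median 1232 CPM), between 592 and 2568 CPM at ZT16 (median 1472 CPM) and between 489 and 1969 CPM at ZT20 (median 957 CPM). At ZT0 the KO libraries lay between 460 and 1054 CPM (median 765 CPM) and at ZT4 between 456 and 950 CPM (median 752 CPM). Each time overlapped with the next. The time of the maximum differed between the KO groups: by the mean of 2 libraries, Hspa5 was highest at ZT16 in Bmal1 KO AL (1580 CPM), at ZT20 in Bmal1 KO RF (1627 CPM), at ZT12 in Cry KO AL (1713 CPM) and at ZT16 in Cry KO RF (1633 CPM).

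Averaged over the 4 KO groups, the 12 h component was called by edgeR for 0 of the 38 genes and 0% of all genes tested. At an unadjusted p under 0.05 it held for 8 of the 38 and for 728 of the 15772 genes tested. Without a filter on low counts it was called for 8. The range of Hspa5 was 0.55 ± 0.18 in this average, that of Creld2 0.71 ± 0.30 and that of Derl3 0.14 ± 0.50. These are not ranges within a group, because groups that peak at different times partly cancel. The median 12 h range over the 38 genes was 0.399 in Bmal1 KO AL, 0.207 in Bmal1 KO RF, 0.312 in Cry KO AL and 0.360 in Cry KO RF. It was 0.215 in the KO average. In Bmal1 WT AL, Bmal1 WT RF, Cry WT AL and Cry WT RF it was 0.447, 0.362, 0.556 and 0.489, and 0.397 in the WT average. The difference between the KO and WT averages was tested itself: it was called for 0 of the 38 genes by edgeR (0.12% of all genes), with 7 genes at an unadjusted p under 0.05, namely Hspa5, Hsp90b1, Hyou1, Pdia4, Creld2, Syvn1 and Derl3. Creld2 had the smallest p of these, 0.0025, with an edgeR adjusted p of 0.38. Of the 15772 genes tested, 744 had an unadjusted p under 0.05 for this difference. Without the filter the difference was called for 8. The smaller 12 h range in the KO average is therefore not established by this test, which was added after the results per group were seen. Within each line and feeding, the knockout difference was called for 0 of the 38 genes for 12 h (0% of all genes in Bmal1 AL and 0.00634% in the other 3 pairs) and for 0 for 24 h (1.04% of all genes in Bmal1 AL, 1.12% in Bmal1 RF, 1.22% in Cry AL and 2.67% in Cry RF), by edgeR. At an unadjusted p under 0.05 there were 0, 2, 0 and 0 genes for 12 h and 0, 3, 13 and 14 for 24 h, in the order Bmal1 AL, Bmal1 RF, Cry AL and Cry RF, and without a filter on low counts 1, 6, 3 and 2 and 5, 3, 10 and 12 were called. Of the 15772 genes tested, 324, 399, 249 and 553 had an unadjusted p under 0.05 for 12 h. For 24 h it was 1156, 1409, 1533 and 2243, in the same order.

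**Figure D3:**
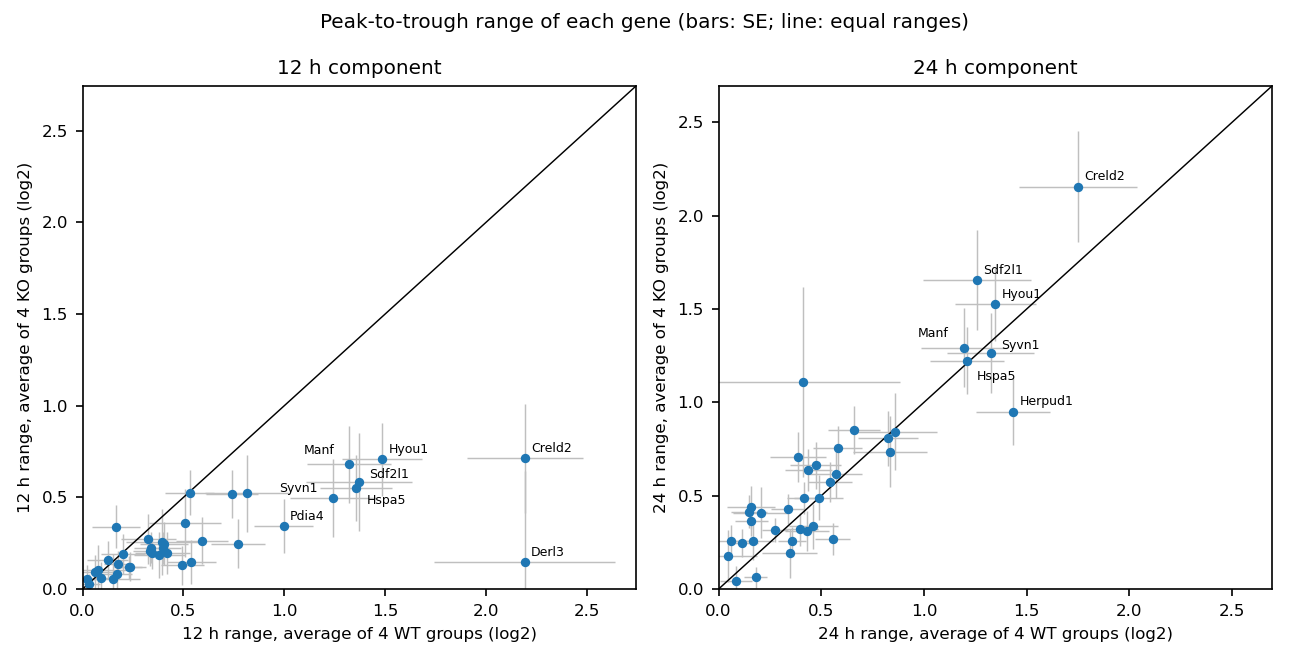
Peak-to-trough range (log2) of the 12 h component (left) and the 24 h component (right) in the average of the 4 WT groups (horizontal axis) and of the 4 KO groups (vertical axis), with 1 point per gene, SE bars and a line of equal ranges. Creld2 lay at 2.19 in WT and 0.71 in KO for 12 h and at 1.75 and 2.16 for 24 h, and the difference was called for 0 of the 38 genes for 12 h. Averages are of the fitted cosine and sine terms, so groups that peak at different times partly cancel.

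The 24 h component was called for 15 of 38 genes in the WT average, where 26% of all genes were called, and for 17 of 38 in the KO average, where 8.5% of all genes were called. Leaving out each KO series in turn gave 15 to 21 genes in the KO average. The called genes peaked at a median of 19.79 h in WT and of 16.99 h in KO. Creld2 had a 24 h range of 1.75 ± 0.29 with a peak at 19.0 h in WT and of 2.16 ± 0.30 with a peak at 16.3 h in KO. Hyou1 had 1.35 ± 0.20 at 19.8 h in WT and 1.53 ± 0.20 at 17.0 h in KO, and Hspa5 had 1.21 ± 0.18 at 19.6 h and 1.22 ± 0.18 at 16.9 h. The 24 h difference between the averages was called for 5 of the 38 genes (Syvn1, Hyou1, Hspa13, Creld2 and Pdia4), with edgeR adjusted p of 0.019 to 0.046, while 12.2% of all genes were called. For these 5 the KO peak came at 15.3 to 18.1 h and the WT peak at 19.0 to 21.5 h. These are peaks of terms averaged over groups that peaked at different times, and not every pair of groups had that order. Under RF, the called genes of the Bmal1 line peaked at a median of 20.58 h in KO and 18.4 h in WT. Those of the Cry line peaked at a median of 17.38 h in KO and 21.61 h in WT. The genes called were not the same in each group. The count of 5 genes fell to 0 without the 7 libraries that stood apart. It was also 0 without series 4 of Bmal1 KO RF, series 2 of Bmal1 WT RF or series 3 of Cry KO RF. It was 1 to 3 when any of 9 other series was left out, and 8 and 9 without series 1 of Bmal1 KO AL and series 4 of Bmal1 WT RF.

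Group by group, the 24 h component was called for 20 of 38 genes in Bmal1 KO RF, where 4.55% of all genes were called. It was called for 13 of 38 in Cry KO RF, where 5.93% of all genes were called. In the KO groups fed ad libitum it was called for 0 of 38 (0.00634% of all genes in Bmal1 KO AL and 0% in Cry KO AL, by edgeR), with 13 and 20 genes at an unadjusted p under 0.05 and 10 and 11 called without a filter on low counts. Of the 15772 genes tested, 979 in Bmal1 KO AL and 1199 in Cry KO AL had an unadjusted p under 0.05. In the WT groups the 24 h component was called for 1 (Bmal1 WT AL, 10.1% of all genes), 6 (Bmal1 WT RF, 12.5%), 4 (Cry WT AL, 6.66%) and 11 (Cry WT RF, 17%). The difference between RF and AL in the 24 h component was called for 0 of the 38 genes and 0% of all genes in each of the 4 genotypes by edgeR, with 13 of the 38 at an unadjusted p under 0.05 in Bmal1 KO and 13 in Cry KO, 1 in Bmal1 WT and 5 in Cry WT. Of the 15772 genes tested, 364, 1134, 243 and 815 had such a p, in the same order. The contrast between the feedings is thus a contrast of calls and not an established difference.

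The 20 genes called in Bmal1 KO RF peaked between 18.56 and 22.44 h, with a median of 20.58 h. Creld2 in this group was at 113 and 46.8 CPM at ZT20 and at 8.5 and 8.05 CPM at ZT8, and its other times lay between 7.66 and 38.1 CPM. Both ZT20 libraries were above every other library of the group. The range of Creld2 was 3.10 ± 0.59 (edgeR adjusted p = 0.0049), that of Sdf2l1 3.00 ± 0.54 (adjusted p = 0.0022), that of Hyou1 2.51 ± 0.40 (adjusted p = 0.00073) and that of Manf 2.46 ± 0.42 (adjusted p = 0.0016). Translocon genes were among the 20 as well, with ranges of 0.96 ± 0.17 for Ssr1, 0.90 ± 0.16 for Ssr3 and 0.82 ± 0.18 for Sec61a1. Of the libraries at ZT20, 1 was among the 3 shallowest and 1 stood apart by Isg15 at 105 CPM; 12 of the 38 genes were called without the libraries that stood apart and 16 without the 3 shallowest. Without series 2 of the group 6 genes were called, and without series 4 none.

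The 13 genes called in Cry KO RF peaked between 16.47 and 22.05 h, with a median of 17.38 h. Creld2 had a range of 2.95 ± 0.62 (edgeR adjusted p = 0.0066), Sdf2l1 of 2.25 ± 0.56 (adjusted p = 0.025), Hyou1 of 2.03 ± 0.40 (adjusted p = 0.003) and Manf of 1.78 ± 0.43 (adjusted p = 0.019). Xbp1 was also called here, with 0.92 ± 0.24 (adjusted p = 0.028), and in no other group. In 2 libraries of this group the pancreas gene Ctrb1 was at 251 CPM (ZT4) and 42.7 CPM (ZT8), and its part in these calls was not tested. Without the libraries that stood apart 2 of the 38 genes were called, without the 3 shallowest 4, and without either series 0.

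Of the sensors, Ern1, which encodes IRE1, had group means from 95.7 to 112 CPM, with SDs of 11.1 to 32.0 CPM over 12 libraries, and its times differed by 1.22-fold to 1.67-fold from lowest to highest mean. The 2 series of Cry KO AL differed in Ern1, with 88.1 to 139.6 CPM (median 128.9 CPM) in series 1 and 59.6 to 90.7 CPM (median 64.1 CPM) in series 2. Atf6 had group means from 97.0 to 108 CPM and a 24 h range of 0.40 ± 0.09 in the WT average with a peak at 12.4 h (edgeR adjusted p = 0.00051), under the minimum range for a call. Eif2ak3, which encodes PERK, had group means from 15.4 to 20.3 CPM and times that differed by 1.40-fold to 2.34-fold within a group, and neither component was called for it in any group or average. None of the 3 sensors was called in any comparison of mean level.

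Of the effectors, Xbp1 was read here as the whole gene, so spliced and unspliced mRNA are counted together. Its 24 h range was 0.16 ± 0.12 in the WT average (edgeR adjusted p = 0.52) and 0.44 ± 0.12 in the KO average (adjusted p = 0.016, under the minimum range). Xbp1 was highest at ZT16 in 7 of 8 KO series and in 2 of 8 WT series, a description of the 16 series with no test. Ddit3, which encodes the stress transcription factor CHOP, was low, with group means from 4.28 to 6.57 CPM. Its 8 WT libraries at ZT16 lay between 4.29 and 14.7 CPM and those at ZT8 between 3.01 and 4.7 CPM, and its 24 h component was called in both averages, with 0.84 ± 0.18 in WT (adjusted p = 0.0005) and 0.74 ± 0.19 in KO (adjusted p = 0.012). Ppp1r15a, the phosphatase subunit GADD34 that restores translation, had neither component called in any group or average.

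Herpud1, a membrane protein that recruits the degradation ligase, had another phase than the chaperones. Its 8 WT libraries at ZT12 lay between 371 and 691 CPM and those at ZT4 between 173 and 233 CPM, without overlap. The 24 h range in the WT average was 1.44 ± 0.18 with a peak at 12.99 h (edgeR adjusted p = 1.1e-08), and in the KO average 0.95 ± 0.18 with a peak at 10.9 h (adjusted p = 0.00039). Its 12 h component was not called, with 0.40 ± 0.18 in the WT average (adjusted p = 0.42). Dnajb9, a co-chaperone that directs BiP to IRE1, had its 12 h peak at 0.7 h in the WT average, earlier than the others, and its 8 WT libraries lay between 63.4 and 203 CPM at ZT0 and between 31.2 and 50.3 CPM at ZT4, without overlap. The largest 24 h ranges called in WT after those of Creld2, Herpud1 and Hyou1 were those of Syvn1 (1.33 ± 0.21), Sdf2l1 (1.26 ± 0.26), Hspa5, Manf (1.19 ± 0.21) and Dnajb9 (0.86 ± 0.21).

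Genes with the ERSE letters and genes without them both held called members. In the WT average, the 12 h component was called for 5 of the 9 genes with the ERSE letters in the window, for 6 of the 22 genes with a window but without the letters, and for 3 of the 7 genes without a window. The median 12 h ranges were 0.77, 0.34 and 0.40 in that order. Sdf2l1 and Pdia4 had no ERSE letters in the window and ranges of 1.37 and 0.997, while Canx, which has the letters, had 0.23 ± 0.06. These are counts of this list and were not tested.

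Mean level over the 6 times asks whether a knockout or the feeding moved a gene whatever its daily profile. In the 4 knockout comparisons the share of the 38 genes called was below the share of all genes called, and the difference in shares was not tested. Bmal1 KO AL against Bmal1 WT AL gave 6 of 38, where 24.4% of all genes were called, and Bmal1 KO RF against Bmal1 WT RF gave 4, where 20.6% of all genes were called. Cry KO AL against Cry WT AL gave 6, where 33% of all genes were called, and Cry KO RF against Cry WT RF gave 1, where 6.3% of all genes were called. In Cry KO AL 5 of the 38 were called higher and 1 lower, where 19.7% of all genes were called higher and 13.3% lower. In Cry KO RF 1 of the 38 was called higher, where 3.28% of all genes were called higher. The median log2 difference over the 38 genes was -0.03, -0.09, 0.04 and 0.02 in the same order, and over all genes 0.02, 0.01, -0.03 and -0.03.

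**Figure D4:**
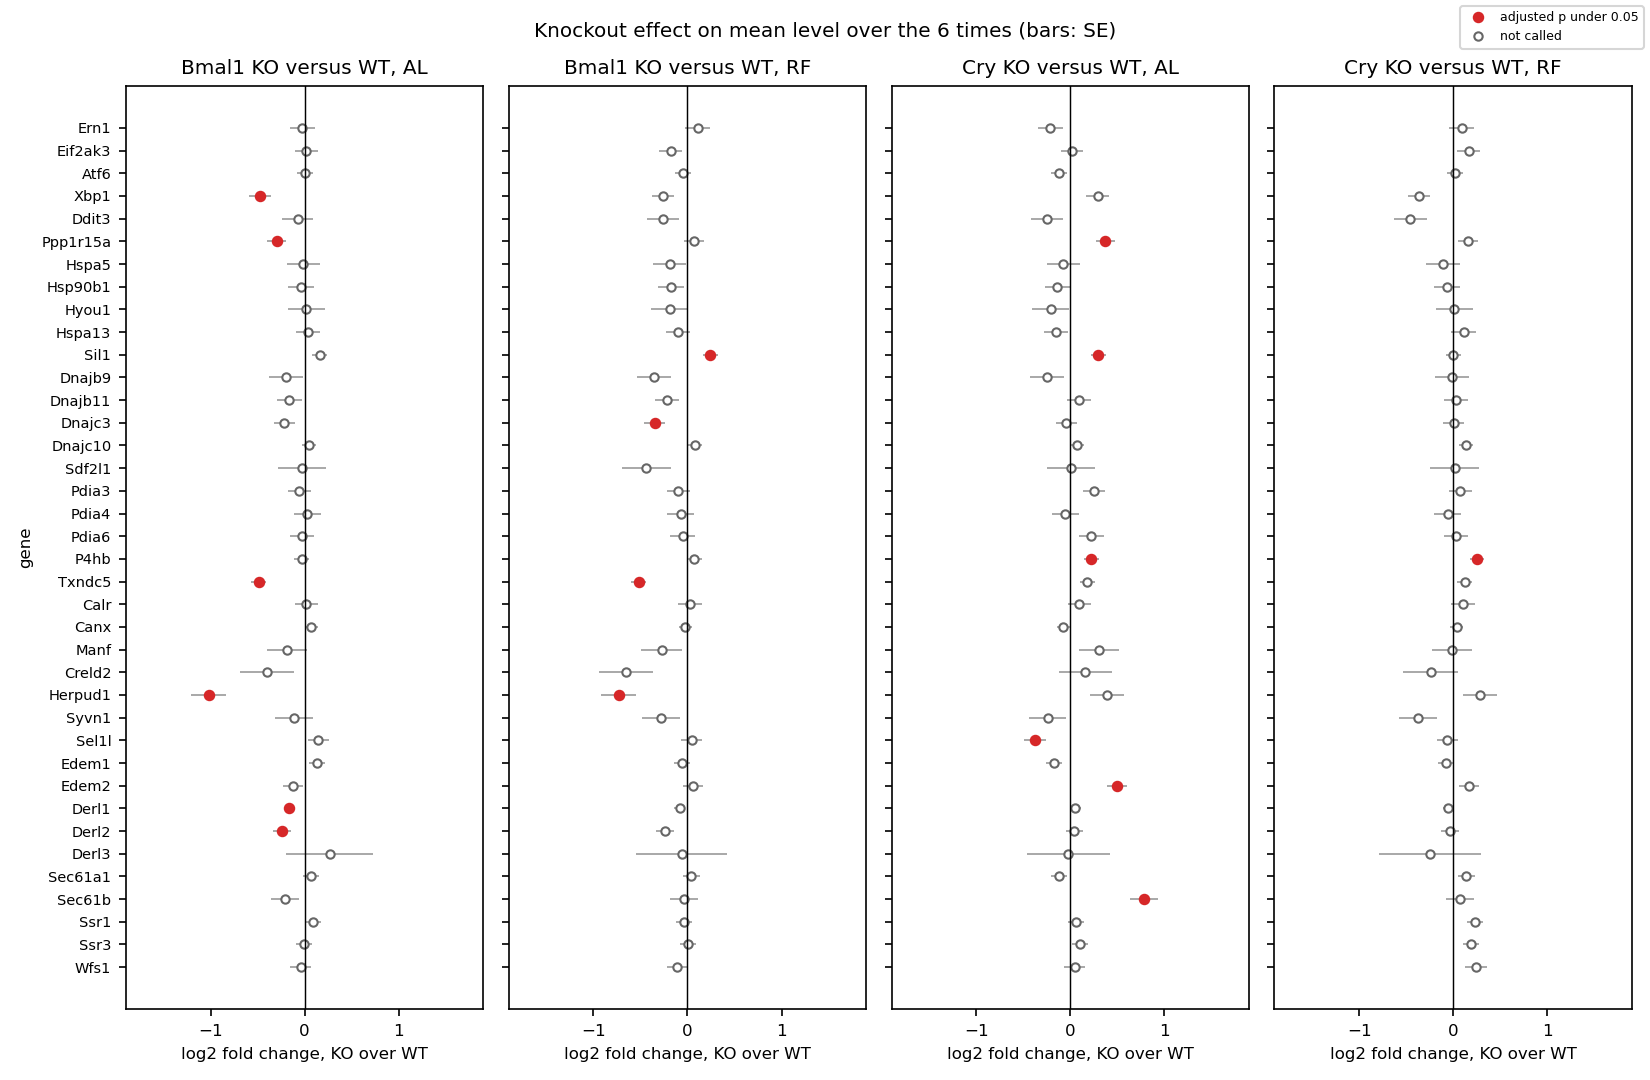
Knockout effect on the mean level over the 6 times for each of the 38 genes in the 4 comparisons of 12 libraries with 12, as log2 fold change with SE; filled red points passed an adjusted p under 0.05. Txndc5 and Herpud1 lay below 0 in both Bmal1 comparisons (-0.49 and -1.02 under AL), and Sec61b lay at 0.78 in Cry KO AL.

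In Bmal1 KO, Herpud1 and Txndc5 fell under both feedings. Herpud1 lay between 66.2 and 291 CPM in the 12 Bmal1 KO AL libraries (median 123 CPM) and between 173 and 691 CPM in Bmal1 WT AL (median 265 CPM). It was lower in KO at all 6 times although the ranges over the day overlapped, and the log2 difference was -1.02 ± 0.18 (SE; edgeR adjusted p = 2.3e-05). Under RF it lay between 86.5 and 319 CPM in KO (median 176 CPM) and between 166 and 786 CPM in WT (median 292 CPM), a difference of -0.73 ± 0.18 (adjusted p = 0.0022). Txndc5, a disulfide isomerase with thioredoxin domains, lay between 111 and 233 CPM in Bmal1 KO AL (median 130 CPM) and between 153 and 255 CPM in Bmal1 WT AL (median 199 CPM). The KO values were lower at all 6 times, with a difference of -0.49 ± 0.08 (adjusted p = 4.9e-06). Under RF Txndc5 lay between 87.5 and 184 CPM in KO (median 127 CPM) and between 148 and 275 CPM in WT (median 176 CPM), lower in KO at 5 of 6 times and with a difference of -0.52 ± 0.08 (adjusted p = 1.6e-06). Txndc5 under both feedings and Herpud1 under AL were called under every alternative tried. Herpud1 under RF did not stay called when each series was left out in turn. Leaving out each series in turn left 2 to 5 genes called in either Bmal1 comparison.

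All 6 genes called in Bmal1 KO AL were lower, where 13.7% of all genes were called higher and 10.7% lower. Beside Herpud1 and Txndc5 these were Xbp1, which fell by 0.48 on the log2 scale (adjusted p = 0.0019), Ppp1r15a by 0.30, Derl2 by 0.24 and Derl1 by 0.17, with edgeR adjusted p of 0.027 to 0.046 for the last 3. Under RF, Dnajc3 fell by 0.35 (adjusted p = 0.015) and Sil1, a nucleotide exchange factor of BiP, rose by 0.24 (adjusted p = 0.024). Beside Herpud1 and Txndc5, no gene called in either Bmal1 comparison stayed called when each series was left out in turn. The difference of the Bmal1 knockout effect between feedings was called for 0 of the 38 genes and 0% of all genes by edgeR, and for 0 of the 38 by DESeq2. At an unadjusted p under 0.05 (edgeR) it held for 1 of the 38 and for 1036 of the 15772 genes tested. The summed level of the hepatocyte markers given above, in which Alb weighs most, was lower in the same Bmal1 KO AL libraries. Under RF the sum was 48988 to 68322 CPM in KO and 63043 to 108735 CPM in WT. The part of these markers in the results on mean level was not tested.

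In Cry KO AL the 2 series differed over the whole libraries: series 2 minus series 1 had an SD of 0.602 on the log2 scale over all genes and of 0.442 over the 38 genes, against 0.215 to 0.310 and 0.138 to 0.242 in the other groups. None of the 6 genes called in Cry KO AL against Cry WT AL was called without series 2 of Cry KO AL, so the differences below are those of the fit over both series. Sec61b, a small subunit of the translocon, lay between 33.7 and 52.1 CPM in the 6 libraries of series 1 and between 91.0 and 109 CPM in the 6 of series 2, without overlap, while the 12 Cry WT AL libraries lay between 29.6 and 47.6 CPM. The fit over both series gave a difference of 0.78 ± 0.15 (edgeR adjusted p = 7.6e-05), and without series 2 of Cry KO AL the estimate was -0.01. Edem2, a lectin-like degradation factor, lay between 51.1 and 89.2 CPM in series 1 and between 91.8 and 127 CPM in series 2, with a difference of 0.49 (adjusted p = 0.00033) in the fit over both. P4hb had a median of 1503 CPM in series 1 and 1938 CPM in series 2, with a difference of 0.22 (adjusted p = 0.025). In the same fit the difference was 0.37 for Ppp1r15a (adjusted p = 0.0046), 0.30 for Sil1 (adjusted p = 0.0035) and -0.38 for Sel1l, the partner of HRD1 in degradation (adjusted p = 0.0098). Without series 2 of Cry KO AL the estimate for Sil1 was -0.03, and over each series left out in turn the number of called genes ran from 1 to 19. Under RF P4hb alone was called, with a mean of 1771 ± 274 CPM (SD, n = 12) in Cry KO RF and 1482 ± 151 CPM in Cry WT RF. It was higher in KO at all 6 times, by 0.25 ± 0.08 (edgeR adjusted p = 0.038), and was not called without the libraries that stood apart, nor without series 5 of Cry KO RF or either series of Cry WT RF.

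Feeding moved few of the 38 genes. In the fit over all series, Ppp1r15a was lower under RF than AL by 0.33 and Derl1 by 0.20 in Bmal1 WT (edgeR adjusted p = 0.025 and 0.018). These are 2 of 38, where 15.7% of all genes were called, 9.33% higher and 6.37% lower. Neither gene stayed called when each series was left out in turn. In Bmal1 KO the feeding difference was called for 0 of 38 (0.545% of all genes, 0.514% higher and 0.0317% lower), with 1 gene at an unadjusted p under 0.05 and 0 by DESeq2. In Cry WT it was called for 0 of 38 (1.59% of all genes, 0.647% higher and 0.938% lower), with 2 genes at an unadjusted p under 0.05 and 0 by DESeq2. Of the 15772 genes tested, 2094 in Bmal1 KO and 2245 in Cry WT had an unadjusted p under 0.05. In Cry KO, 6 of 38 fell (18.2% of all genes were called, 5.07% higher and 13.1% lower). Xbp1 in Cry KO lay between 131 and 401 CPM under RF (median 202 CPM) and between 238 and 632 CPM under AL (median 352 CPM). It was lower under RF at all 6 times, by 0.76 ± 0.12 on the log2 scale (adjusted p = 8.4e-05), and remained called without each series in turn, though not with series as a random effect. Xbp1 was the only one of the 6 that stayed called when each series was left out in turn. In the fit over all series Derl3 fell by 1.45 (adjusted p = 0.042), Sec61b by 0.73, Edem2 by 0.44, Pdia6 by 0.36 and Sil1 by 0.30, and without series 2 of Cry KO AL none of these 5 was called. Edem2 had medians of 61.6 and 67.0 CPM in the 2 series under RF, against 65.6 CPM in series 1 and 109.7 CPM in series 2 under AL. For Sec61b, Pdia6 and Sil1 the estimate without series 2 of Cry KO AL was 0.07, 0.02 and 0.03. The difference of the Cry knockout effect between feedings was called for Xbp1 (-0.65 ± 0.17, adjusted p = 0.019) and Sec61b (-0.71 ± 0.21, adjusted p = 0.035), which is 2 of 38 where 6.33% of all genes were called, 0.85% higher and 5.48% lower. Without series 2 of Cry KO AL neither was called, and the estimate for Sec61b was 0.08.

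Genes of neighbouring pathways that are not among the 38 can be set beside the 2.41% of all genes with a called 12 h component in the WT average. That component was called for 1 of 16 further genes of the translocon, signal peptidase and signal recognition (Srprb), 2 of 15 of N-glycosylation (Gfpt1 and Alg2), 1 of 15 further folding and disulfide enzymes (Ero1lb), 2 of 14 further degradation genes (Ubxn4 and Ube2g2), 2 of 16 of ER to Golgi transport (Sec23b and Sec24d), 2 of 15 of the ATF4 and CHOP branch (Ddit4 and Trib3) and 1 of 10 ER membrane transcription factors and their processing (Atf6b). The median 12 h range of these lists lay between 0.13 and 0.47, against 0.40 for the 38 genes and 0.20 for all genes tested, and no difference between lists was tested. Sec23b, a subunit of the coat of vesicles that leave the ER, had a range of 0.80 with a peak at 3.0 h (edgeR adjusted p = 1.9e-05), and Atf6b, a paralogue of Atf6, had 0.60 with a peak at 3.4 h (adjusted p = 2.5e-07). Mean levels of the ATF4 and CHOP branch were called in Bmal1 KO AL for 8 of 15 genes, 3 higher and 5 lower, where 13.7% of all genes were called higher and 10.7% lower. Asns, the asparagine synthetase gene, and Trib3, a pseudokinase of that branch, fell by 4.20 and 1.92 on the log2 scale, while the transcription factor gene Atf5 rose by 0.71. Levels, SEs and values by series of Asns, Trib3 and Atf5 are not given here.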

How the data were processed

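Gene counts from 96 mouse liver RNA-seq libraries were used as deposited: raw counts per gene, with total counts of 1478963 to 35568856. The libraries were stranded mRNA libraries, per the labels' protocols, and were aligned with STAR 2.4.0i to mm10, per the submitters' processing notes; which program, strand setting and gene annotation produced the counts is not given in the sources used here, so antisense or overlapping genes cannot be separated. Of 55421 rows, 267 had no symbol and held 0.0449% of the counts.

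Counts were tested with edgeR 4.0.16 in R 4.3.3 (quasi-likelihood test, TMM, filterByExpr with a minimum count of 10 and total of 15), which left 15772 genes. Mean level used 1 mean for each group and time. Rhythm used a mean and 24 h and 12 h cosine and sine terms for each group. P-values were adjusted over all genes tested by Benjamini-Hochberg. Alternatives were no filter, a filter on the mean (1 CPM or more), RLE size factors, DESeq2 1.42.0 and limma-voom 3.58.1 (mean level), an intercept for each series, no minimum range, and libraries or series left out. The code was tested on simulated data.

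A library stood apart if Saa1 exceeded 5000 CPM, Isg15 exceeded 50 CPM or Ctrb1 exceeded 40 CPM. The members and lists were chosen with earlier results of these data known. All 38 genes are covered by counts. Values are given for Hspa5, Xbp1, Atf6, Ern1, Eif2ak3 and Ddit3, for up to 6 called genes per direction with the smallest p in a comparison, and for up to 8 called genes with the largest WT range in a component; Derl3, Dnajc3, Sec61a1, Canx and others named beside a count were chosen after their values were seen. The averages over 4 WT or 4 KO groups and their differences were added after the results per group were seen. Promoter windows are from RefSeq (GRCm38.p6).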

Additional observations from a re-analysis of the deposited data

Results flagged for a closer look

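The knockout effect on mean level in the Cry line differed between feedings for 2 of the 38 genes by a test of the difference itself (edgeR), where 6.33% of all genes were called, so the share of the 38 does not stand above that of all genes. Xbp1 had -0.65 ± 0.17 (SE, log2 scale) and Sec61b -0.71 ± 0.21, RF effect minus AL effect. Neither was called without the 3 shallowest libraries, without the libraries that stood apart or without series 2 of Cry KO AL. The Sec61b estimate was 0.082 without series 2 of Cry KO AL and -1.19 without series 1.

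The 24 h component differed between the 4 KO and the 4 WT groups for 5 of the 38 genes by a test of the difference itself (edgeR), where 12.2% of all genes were called, a share near that of the 38. The count was 0 without the libraries that stood apart, and no gene was called under every leaving out of 1 series. The size of the difference, as a range on the log2 scale, was 1.42 for Creld2, 1.15 for Syvn1, 1.05 for Hyou1, 0.70 for Pdia4 and 0.63 for Hspa13.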

How the results depend on the processing

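Counts are of the 38 genes called. Of 492 alternative counts, 380 stayed within 1.5 times the main one and 112 moved; of the values of single genes, 1155 kept their direction and side of the threshold, 348 lost the call and 6 reversed. The cause of these changes was not tested.

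With DESeq2, Cry KO versus WT under RF gave 2. With limma-voom and series as a random effect, mean level gave 2 (Bmal1 AL), 1 (Bmal1 RF), 2 (Cry AL), 0 (Cry RF), 0 (feeding, Bmal1 WT), 0 (feeding, Cry KO) and 0 (Cry knockout by feeding). An intercept for each series gave, for 24 h, 2 (Bmal1 WT AL), 7 (Cry WT AL), 3 (difference, Cry AL) and 9 (averaged difference), and for 12 h 2 (Cry WT RF). Without a filter on low counts, mean level gave 8 (Bmal1 RF), 2 (Cry RF), and for feeding 5 (Bmal1 WT), 4 (Bmal1 KO) and 2 (Cry WT); 24 h gave 9 (Bmal1 WT AL), 12 (Bmal1 WT RF), 10 (Bmal1 KO AL), 13 (Cry WT AL) and 11 (Cry KO AL); 12 h gave 11, 8, 6 and 1 (Bmal1 WT AL, WT RF, KO AL, KO RF) and 10, 10, 2 and 6 (Cry, same order). The knockout differences without the filter were 5, 3, 10 and 12 for 24 h and 1, 6, 3 and 2 for 12 h (Bmal1 AL, Bmal1 RF, Cry AL, Cry RF), the feeding differences for 24 h 3, 8, 7 and 8 (Bmal1 WT, Bmal1 KO, Cry WT, Cry KO), and the averages 8 (12 h, KO), 8 (12 h difference) and 14 (24 h difference). With no minimum range, the 24 h averages gave 27 (WT) and 27 (KO). Without the 3 shallowest libraries, an alternative added for the rhythms after seeing the data, there were 0 (Cry knockout by feeding), 4 (24 h, Cry KO RF) and 1 (24 h difference, Cry AL). Without the libraries that stood apart there were 0 (Cry RF), 0 (Cry knockout by feeding), 12 (24 h, Bmal1 KO RF), 1 (Cry WT AL), 2 (Cry WT RF), 2 (Cry KO RF) and 0 (24 h averaged difference).

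Leaving out 1 series in turn gave, for mean level, 2 to 5 (Bmal1 AL), 2 to 5 (Bmal1 RF), 1 to 19 (Cry AL), 0 to 2 (Cry RF), 0 to 4 (feeding, Bmal1 WT), 1 to 18 (feeding, Cry KO) and 0 to 13 (Cry knockout by feeding). For 24 h it gave 0 to 0 (Bmal1 WT AL), 0 to 1 (Bmal1 WT RF), 0 to 6 (Bmal1 KO RF), 0 to 0 in each of Cry WT AL, Cry WT RF and Cry KO RF, 14 to 18 (WT average), 15 to 21 (KO average), 0 to 9 (averaged difference) and 0 to 1 (feeding difference, Bmal1 KO). For 12 h it gave 0 to 1 (Bmal1 WT AL) and 7 to 16 (WT average). Leaving out series 2 and series 1 of Cry KO AL in turn, the estimate ran from -0.034 to 0.54 for Sil1 and from -0.011 to 1.26 for Sec61b in Cry KO versus WT under AL. For feeding in Cry KO it ran from 0.031 to -0.53 for Sil1, from 0.019 to -0.61 for Pdia6 and from 0.067 to -1.20 for Sec61b, and in the Cry knockout by feeding from 0.082 to -1.19 for Sec61b, so that these 6 estimates reversed without series 2.

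WT and KO share 2 series numbers under each feeding in the Bmal1 line only. Same-numbered libraries correlated at -0.0785 to 0.298, below 0 at ZT0 and ZT4 under AL and above 0 at all other times under either feeding. They were not treated as pairs in the main fit. With the replicate block Bmal1 KO gave 6 (AL) and 4 (RF), with 0 for the 24 h and 12 h differences. No paired analysis was possible because the groups share fewer than 2 numbers in the Cry line and between feedings. Genes of a few CPM, such as Derl3 and Ddit3, are limited by depth in the shallow libraries.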
